A study of Mus musculus with 48 samples.

Results

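The genes of sterol and fatty acid synthesis were followed through the mouse aorta in 3 knockout models of elastic fibre formation. The set holds 34 genes of these pathways, chosen with earlier results of these data known. In the sterol branch are 24 of them, which make cholesterol and its isoprenoid precursors, regulate that synthesis or carry the product. The fatty acid branch has 10, which make fatty acids or desaturate and lengthen them. Of the 34, 31 had a probe set with that gene as its only symbol, 22 in the sterol branch and 9 in the fatty acid branch, and all 31 passed the filter on low signal, among 15337 tested genes of 22180 with such a probe set. Acat2, Idi1 and Scd2 had none and were not analysed here.

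RNA was measured on 48 arrays, as log2 signals per probe set. The Eln knockout lacks elastin, the bulk of every elastic fibre. The Efemp2 knockout lacks fibulin-4, which helps to assemble it, and the Lox knockout lacks lysyl oxidase, which cross-links it. Each model had knockout (KO) and wild-type (WT) tissue of the ascending (AA) and descending aorta (DA). Tissue was collected before birth, at embryonic day 17.5 (E17.5), or on postnatal day 1 (P1). These made 24 groups of 2 arrays, and each array held the RNA of 8 pooled aortas. Per the labels, the Eln and Efemp2 mice were C57BL/6 and the Lox mice B6 albino, and the labels name no further allele, agent, promoter or Cre. Each KO was set against the WT of its own model, location and stage, called a pair, so there were 12 pairs, 4 per model.

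Cells make cholesterol from acetyl-CoA through mevalonate, farnesyl diphosphate, squalene and lanosterol, and make fatty acids from the same starting unit. When sterol in the endoplasmic reticulum is low, the transcription factor SREBP-2, encoded by Srebf2, is escorted by SCAP to the Golgi, cut and freed to enter the nucleus, where it raises most enzymes of the sterol route. INSIG proteins hold SCAP back when sterol is plentiful, and Insig1 is itself an SREBP target, while SREBP-1, from Srebf1, acts more on the fatty acid genes. Vascular smooth muscle cells, the main cells of the aortic wall, both make cholesterol and take it up from lipoproteins.

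The labels were checked first against the deleted genes and the tissue. Eln read 4.23 to 5.56 in the Eln KO arrays and 9.20 to 11.91 in their WT, Lox read 6.26 to 8.71 in the Lox KO arrays and 9.55 to 11.48 in their WT, and Efemp2 had no probe set under its own name, so that its deletion was not checked here. The smooth muscle markers Acta2, at 10.86 to 12.75, and Myh11, at 8.70 to 11.12, were high on every array. Others of that list read lower, with Des at 5.51 to 8.13, Lmod1 at 5.98 to 9.19 and Smtn at 6.56 to 9.40. Array medians ran from 3.71 to 5.35, and between the 2 arrays of a group r across genes had a median of 0.970 and was at least 0.875 (genes are not independent replicates). At P1, 4 WT arrays, both of Eln DA, replicate 2 of Efemp2 AA and replicate 2 of Efemp2 DA, had a raised signal on probe sets with no gene name, with medians of 4.35 to 4.37 against at most 4.14 on the other Eln and Efemp2 P1 arrays. They are called the 4 high-background arrays below. Arrays shared exact low values within a stage and model, with Eln and Efemp2 together at P1, and hardly any across such sets. The Lox arrays at P1 shared none. Levels are therefore compared within a pair and not between stages.

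Promoters of the genes that rose in at least 2 models, and that had a single entry in the RefSeq table (GRCm38.p6), are printed to show a short element that most of the set carries. Each line holds the 250 bases before the annotated start, 5′ to 3′ on the gene's strand. Capitals mark the CCAAT box, the NF-Y element that accompanies SREBP sites in many sterol promoters, as CCAAT or its reverse complement, and in Hmgcs1 also a match to TCACNCCAC, the sterol regulatory element.
Hsd17b7, chr1:169969206-169969455, minus strand: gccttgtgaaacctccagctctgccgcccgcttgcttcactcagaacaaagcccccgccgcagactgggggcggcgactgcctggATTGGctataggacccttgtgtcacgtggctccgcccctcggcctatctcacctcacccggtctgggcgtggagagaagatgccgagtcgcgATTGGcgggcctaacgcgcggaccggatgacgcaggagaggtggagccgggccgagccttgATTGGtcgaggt
Cyp51, chr5:4104698-4104947, minus strand: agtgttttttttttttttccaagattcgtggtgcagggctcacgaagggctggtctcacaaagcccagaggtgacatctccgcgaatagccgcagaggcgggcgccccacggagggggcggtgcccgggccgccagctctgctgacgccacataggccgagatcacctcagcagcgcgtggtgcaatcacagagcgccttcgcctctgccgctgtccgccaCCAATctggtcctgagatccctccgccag
Insig1, chr5:28071162-28071411, plus strand: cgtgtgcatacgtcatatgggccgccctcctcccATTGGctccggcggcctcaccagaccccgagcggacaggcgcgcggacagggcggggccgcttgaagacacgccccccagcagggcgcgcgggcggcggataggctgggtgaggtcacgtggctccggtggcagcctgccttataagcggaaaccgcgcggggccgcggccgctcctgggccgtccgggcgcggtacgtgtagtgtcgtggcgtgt
Msmo1, chr8:64733579-64733828, minus strand: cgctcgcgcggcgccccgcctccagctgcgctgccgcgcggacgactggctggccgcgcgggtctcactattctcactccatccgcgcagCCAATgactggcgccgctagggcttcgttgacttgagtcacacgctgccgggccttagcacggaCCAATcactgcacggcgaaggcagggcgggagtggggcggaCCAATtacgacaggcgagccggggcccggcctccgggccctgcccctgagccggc
Hmgcs1, chr13:119690101-119690350, plus strand: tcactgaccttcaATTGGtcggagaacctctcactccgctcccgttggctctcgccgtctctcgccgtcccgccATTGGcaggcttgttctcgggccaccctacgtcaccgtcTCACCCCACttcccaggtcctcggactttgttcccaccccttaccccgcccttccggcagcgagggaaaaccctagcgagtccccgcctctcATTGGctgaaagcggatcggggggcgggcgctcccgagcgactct
These 5 promoters belong to genes on 4 chromosomes and carry from 1 to 3 marked CCAAT boxes each. In windows from 250 bases before to 50 after the start, searched on both strands, CCAAT was present in 23 of the 27 set members with an entry (85.2%), in 19 of 20 of the sterol branch and 4 of 7 of the fatty acid branch, against 41.1% of 27025 genes. Acaca, Acat2, Elovl6 and Fads2 had none. The Sp1 box GGGCGG was in 22 of 27 (81.5%, against 38.2% of genes), and the E-box CANGTG in 13 of 27 (48.1%, against 48.3%). Only Hmgcs1 held TCACNCCAC, which was in 1.44% of genes. A match is a run of letters, not a measured site, and the table had no entry under these symbols for Fdps, Fdft1, Sqle, Stard4, Fads1, Scd1 and Scd2.

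In the mean over the 4 pairs of a model, 7 of 31 members rose in Eln KO (against 2.74% of all tested genes), 5 rose in Efemp2 KO (against 3.14%) and 8 rose in Lox KO (against 0.561%). No member fell, against 0.541%, 0.665% and 1.00% of all tested genes. The members were chosen with earlier results of these data known, so the counts are not an independent test of the set. These calls are limma tests with Benjamini-Hochberg adjusted p under 0.05 over all tested genes, and errors are limma standard errors (SE), with 8 arrays per genotype. Nothing in the labels says that the pools of a group came from separate litters, so p-values measure the spread between pools. AA and DA pools of 1 model, genotype and stage may come from the same animals. The fit treated their arrays as independent, and that pairing was not tested. At an unadjusted p under 0.05, 16, 9 and 13 members were higher and 0, 1 and 0 lower in the 3 models. Fdps, Cyp51 and Insig1 rose in all 3, as did 34 of all tested genes (0.222%). Hmgcs1, Msmo1 and Hsd17b7 rose in 2 models, Fdft1, Srebf2, Me1, Sqle and Sc5d in 1, and 20 members in none. How many of all tested genes rose in 2 models or in 1 was not counted. Whole-tissue RNA cannot tell more cells of a type from more RNA per cell.

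These counts moved when arrays were left out. The Eln count was 0 without the DA P1 pair, whose WT arrays both had high background (7 members at an unadjusted p under 0.05, and 0.652% of all genes higher), 2 without the 4 high-background arrays and 1 with array background as a covariate. It fell to 3 without WT AA E17.5 replicate 1, KO AA E17.5 replicate 2, KO DA E17.5 replicate 1 or KO AA P1 replicate 2, and to 4 without WT AA E17.5 replicate 2, either WT DA E17.5 array, WT AA P1 replicate 2, WT DA P1 replicate 1 or KO DA P1 replicate 2. The Efemp2 count fell to 3 without WT DA E17.5 replicate 1, WT DA P1 replicate 2, KO AA E17.5 replicate 2, KO DA E17.5 replicate 2 or KO AA P1 replicate 2, and to 1 with the covariate. The Lox count fell to 5 without WT AA E17.5 replicate 1, WT AA P1 replicate 2, WT DA P1 replicate 1 or KO DA E17.5 replicate 2, and to 4 without KO AA P1 replicate 2 or KO DA P1 replicate 1 or with the covariate. It was 10 with each array centred on its median, and 10 with only the arrays compared in the fit.

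**Figure D1:**
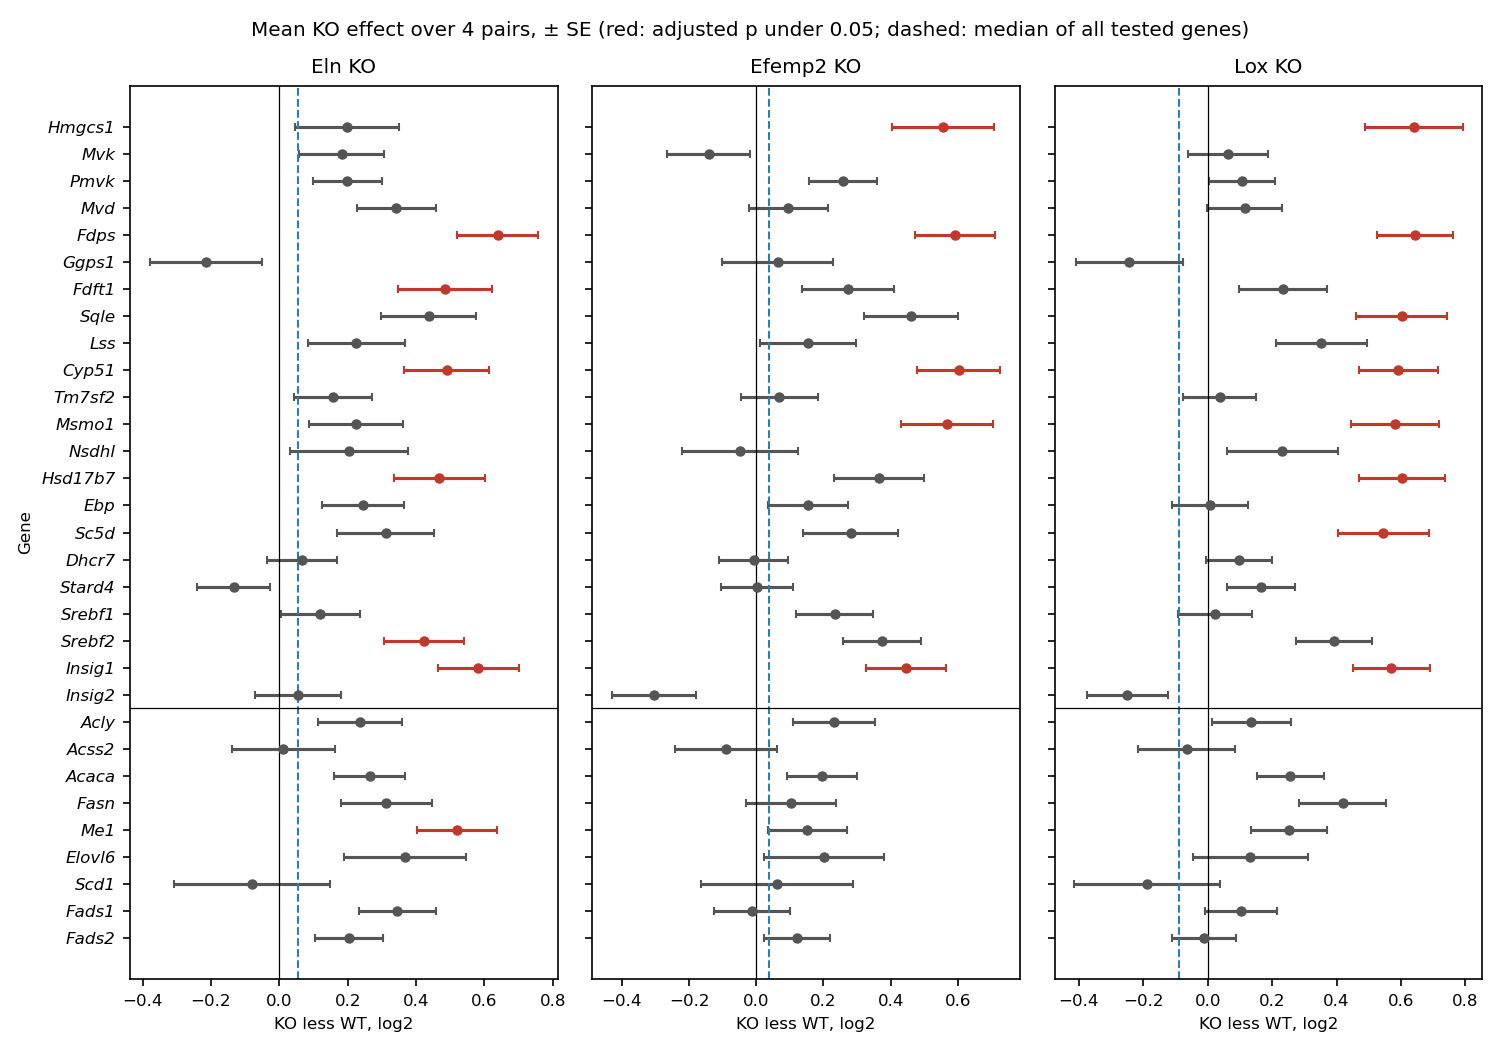
Mean KO less WT of each of the 31 measured genes in the 3 models (x axis, log2; points with SE bars), sterol branch above the line and fatty acid branch below it. Red points had a limma adjusted p under 0.05 and the dashed line is the median of all tested genes. Fdps, Cyp51 and Insig1 are red in every panel, and Me1 in Eln KO is the only red point of the fatty acid branch.

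The first steps lead from acetyl-CoA to farnesyl diphosphate. Fdps, farnesyl diphosphate synthase (probe set 17406908), makes the branch point of sterols and isoprenoids and was higher in 11 of 12 pairs. In the Eln model at E17.5 it read 6.81 and 6.87 in WT and 6.74 and 7.51 in KO in AA, and 7.28 and 7.50 in WT and 8.00 and 8.11 in KO in DA. After birth, at P1, it read 6.45 and 6.83 in WT and 6.89 and 7.04 in KO in AA, and 5.97 and 5.80 in WT and 7.39 and 6.92 in KO in DA. Both KO arrays lay above both WT arrays in 3 of the 4 Eln pairs, and only in AA at E17.5 did they overlap. The share of all tested genes that separate this way in a pair was not counted, here or below. In the Efemp2 model at E17.5 Fdps read 6.35 and 6.85 in WT and 7.25 and 7.43 in KO in AA, and 7.42 and 8.08 in WT and 7.86 and 8.17 in KO in DA. Its P1 arrays read 6.22 and 5.92 in WT and 6.88 and 7.07 in KO in AA, and 5.74 and 5.75 in WT and 6.31 and 6.09 in KO in DA. Here only DA at E17.5 overlapped. In the Lox model at E17.5 it read 4.91 and 5.08 in WT and 5.14 and 4.75 in KO in AA, and 5.69 and 5.67 in WT and 6.24 and 5.98 in KO in DA, and the arrays of AA overlapped. At P1 it read 6.89 and 6.73 in WT and 7.59 and 8.01 in KO in AA, and 7.22 and 7.37 in WT and 8.59 and 8.41 in KO in DA, with every KO array above every WT array of either location. Fdps rose by 0.64 ± 0.12 in Eln KO (limma adjusted p = 0.000987), in Efemp2 KO by 0.59 ± 0.12 (0.00217) and in Lox KO by 0.64 ± 0.12 (0.00218). Its call held on leaving out any 1 of the 48 arrays, and in Eln KO it ended without the 4 high-background arrays, at 0.43 (0.146), or without the DA P1 pair (0.171).

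Hmgcs1, the cytosolic HMG-CoA synthase ahead of mevalonate (probe set 17290173), rose in Efemp2 KO by 0.55 ± 0.15 (limma adjusted p = 0.0316) and in Lox KO by 0.64 ± 0.15 (0.0208). In Efemp2 at P1 it read 5.35 and 6.12 in WT and 7.21 and 7.35 in KO in AA, and 6.72 and 6.39 in WT and 6.86 and 7.18 in KO in DA. In Lox at P1 it read 7.49 and 7.69 in WT and 8.30 and 8.78 in KO in AA, and 8.36 and 8.23 in WT and 9.47 and 9.25 in KO in DA. All 4 of these pairs were free of overlap. Over both stages, 2 of 4 pairs in Efemp2 and 3 of 4 in Lox were. In the mean over the E17.5 pairs, Hmgcs1 differed by 0.11 in Efemp2 KO (limma adjusted p = 0.970) and by 0.27 in Lox KO (0.984). In Eln KO the difference was 0.20 ± 0.15 (0.579), and in AA at P1 of that model the KO arrays read 6.21 and 7.19 against 6.77 and 7.74 in WT. The Hmgcs1 call in Efemp2 KO ended without WT AA E17.5 replicate 2, WT DA E17.5 replicate 1, WT AA P1 replicate 1, WT DA P1 replicate 2, KO AA E17.5 replicate 1, KO AA E17.5 replicate 2, KO DA E17.5 replicate 2, KO AA P1 replicate 2 or KO DA P1 replicate 2 (adjusted p from 0.0568 to 0.106). It also ended with loess (0.0801), with only the arrays compared (0.0996) and with the covariate, at 0.38 (0.281). The Hmgcs1 call in Lox KO ended without WT AA E17.5 replicate 1, WT AA P1 replicate 1, KO AA E17.5 replicate 1, KO DA E17.5 replicate 1, KO AA P1 replicate 2 or KO DA P1 replicate 1 (adjusted p from 0.0565 to 0.0784), and with the covariate (0.0694).

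Mevalonate kinase (Mvk), phosphomevalonate kinase (Pmvk) and mevalonate diphosphate decarboxylase (Mvd), the next 3 steps, passed the test in no model mean, with differences between -0.14 and 0.34. Mvd had the largest of these, 0.34 ± 0.12 in Eln KO (limma adjusted p = 0.108). Ggps1, which turns farnesyl into geranylgeranyl diphosphate for protein prenylation and so leads away from sterols, differed by -0.21 ± 0.17, 0.06 ± 0.17 and -0.24 ± 0.17 in Eln, Efemp2 and Lox KO. It lay below the median of all tested genes in 8 of 12 pairs.

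From farnesyl diphosphate, squalene synthase (Fdft1), squalene epoxidase (Sqle) and lanosterol synthase (Lss) lead to lanosterol, the first sterol. Sqle, a rate-controlling step (probe set 17311807), rose in Lox KO by 0.60 ± 0.14 (limma adjusted p = 0.0182). It differed by 0.44 ± 0.14 in Eln KO (0.0872) and by 0.46 ± 0.14 in Efemp2 KO (0.0600). In Lox at P1 it read 6.87 and 6.65 in WT and 7.66 and 8.02 in KO in AA, and 6.91 and 7.41 in WT and 8.45 and 8.48 in KO in DA. In Lox at E17.5 it read 6.05 and 6.82 in WT and 6.22 and 6.12 in KO in AA, and 6.95 and 6.89 in WT and 7.11 and 7.31 in KO in DA, where AA overlapped and DA did not. Fdft1 rose in Eln KO by 0.49 ± 0.14 (0.0424), with both KO above both WT arrays in 4 of 4 pairs. That call ended on leaving out any 1 of 18 arrays (adjusted p from 0.05003 to 0.151) and in 7 of 11 other settings. With array background as a covariate it stood at 0.17 (0.696), and without the DA P1 pair at 0.39 (0.415). The Sqle call in Lox KO ended without WT AA E17.5 replicate 1, WT AA P1 replicate 2, WT DA P1 replicate 1, KO DA E17.5 replicate 2 or KO AA P1 replicate 2 (adjusted p from 0.0538 to 0.0805), and with the covariate (0.0626). Lss passed in no model, at 0.23, 0.15 and 0.35.

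Of the enzymes from lanosterol to cholesterol, Cyp51, the lanosterol 14-alpha-demethylase (probe set 17445308), was higher in 12 of 12 pairs. In Eln at E17.5 it read 5.34 and 5.67 in WT and 5.78 and 6.10 in KO in AA, and 5.62 and 5.65 in WT and 6.58 and 6.19 in KO in DA, and no pair overlapped. The P1 arrays read 5.25 and 5.95 in WT and 5.91 and 6.10 in KO in AA, and 5.80 and 5.50 in WT and 5.75 and 6.29 in KO in DA, and both pairs overlapped. In Efemp2 at E17.5 Cyp51 read 6.67 and 6.02 in WT and 6.77 and 6.69 in KO in AA, and 6.65 and 6.90 in WT and 7.00 and 7.23 in KO in DA. Its P1 arrays read 5.21 and 5.31 in WT and 6.15 and 6.49 in KO in AA, and 5.68 and 5.14 in WT and 6.05 and 6.02 in KO in DA. All 4 Efemp2 pairs were free of overlap, though in AA at E17.5 the gap was small. In Lox at E17.5 it read 5.25 and 5.68 in WT and 5.79 and 5.40 in KO in AA, and 6.11 and 5.90 in WT and 6.15 and 6.06 in KO in DA, with overlap in both locations. The Lox arrays at P1 read 6.31 and 6.11 in WT and 7.12 and 7.44 in KO in AA, and 6.66 and 6.80 in WT and 7.99 and 7.61 in KO in DA, with none. Cyp51 rose by 0.49 ± 0.12 in Eln KO (limma adjusted p = 0.0200), in Efemp2 KO by 0.60 ± 0.12 (0.00290) and in Lox KO by 0.59 ± 0.12 (0.00723). The Eln call ended without WT AA E17.5 replicate 1, WT AA P1 replicate 1, KO AA E17.5 replicate 2, KO DA E17.5 replicate 1, KO AA P1 replicate 2 or KO DA P1 replicate 2 (adjusted p from 0.0605 to 0.0771). It also ended with array background as a covariate (0.338), with only the arrays compared in the fit (0.0792) and without the DA P1 pair (0.0618), and the Efemp2 call ended with the covariate (0.0581).

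Msmo1, the methylsterol monooxygenase that removes the C4 methyl groups (probe set 17509629), rose in Efemp2 KO by 0.57 ± 0.14 (limma adjusted p = 0.0126) and in Lox KO by 0.58 ± 0.14 (0.0200). In Efemp2 at P1 it read 4.75 and 4.78 in WT and 5.88 and 5.90 in KO in AA, and 5.19 and 5.01 in WT and 5.38 and 5.77 in KO in DA. In Lox at P1 it read 5.83 and 5.68 in WT and 6.45 and 6.96 in KO in AA, and 5.88 and 5.47 in WT and 7.05 and 7.02 in KO in DA. Its Lox arrays at E17.5 lay close together, at 4.81 and 4.80 in WT and 5.00 and 4.74 in KO in AA, and 5.34 and 5.51 in WT and 5.30 and 5.44 in KO in DA. In Eln KO it differed by 0.22 ± 0.14 (0.457). Hsd17b7, which acts with it as the C3 ketoreductase, rose in Eln KO by 0.47 ± 0.13 (0.0455) and in Lox KO by 0.60 ± 0.13 (0.0124). In Lox DA at E17.5 it read 3.42 and 3.16 in WT and 4.36 and 4.14 in KO. The WT values there lay near the medians of probe sets with no gene name on the same arrays, 3.27 and 3.21, so the size of that difference is not well measured. In the Eln model Hsd17b7 read 3.73 to 4.99 in WT and 3.87 to 5.66 in KO, where such medians ran from 3.66 to 4.35. Its mean over all arrays was 4.58, below the filter value of 4.94, so the Eln difference has a similar limit. With the covariate the Msmo1 call ended in Efemp2 KO, at 0.43 (0.149), and in Lox KO (0.0645). The Msmo1 call in Lox KO also ended without WT DA E17.5 replicate 1, WT AA P1 replicate 2, WT DA P1 replicate 2, KO AA E17.5 replicate 1, KO DA E17.5 replicate 2, KO AA P1 replicate 2 or KO DA P1 replicate 1 (adjusted p from 0.0530 to 0.0807). The Hsd17b7 call in Eln KO ended on leaving out any 1 of 24 arrays (adjusted p from 0.0505 to 0.158) and in 8 of 11 other settings, among them no filter (0.0589), loess (0.0791), the covariate (0.226) and the fit without the DA P1 pair (0.308). The Hsd17b7 call in Lox KO ended without WT DA P1 replicate 1 or KO DA P1 replicate 1 (adjusted p from 0.0530 to 0.0555).

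Sc5d, the lathosterol desaturase near the end of the route, rose in Lox KO by 0.55 ± 0.14 (limma adjusted p = 0.0399), a call that ended on leaving out any 1 of 12 arrays (adjusted p from 0.0613 to 0.125), with no filter (0.0563) and with the covariate (0.0953). It differed by 0.31 and 0.28 in Eln and Efemp2 KO. The sterol reductase Tm7sf2, the C4 decarboxylating dehydrogenase Nsdhl, the isomerase Ebp and the last reductase Dhcr7 passed in no model mean, and their differences lay between -0.05 and 0.24. Of the 8 measured enzymes of this segment, 1 rose in all 3 models, 2 in 2 models and 1 in 1. Beside these, 0.222% of all tested genes rose in all 3, and the shares for 2 models and for 1 were not counted.

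**Figure D2:**
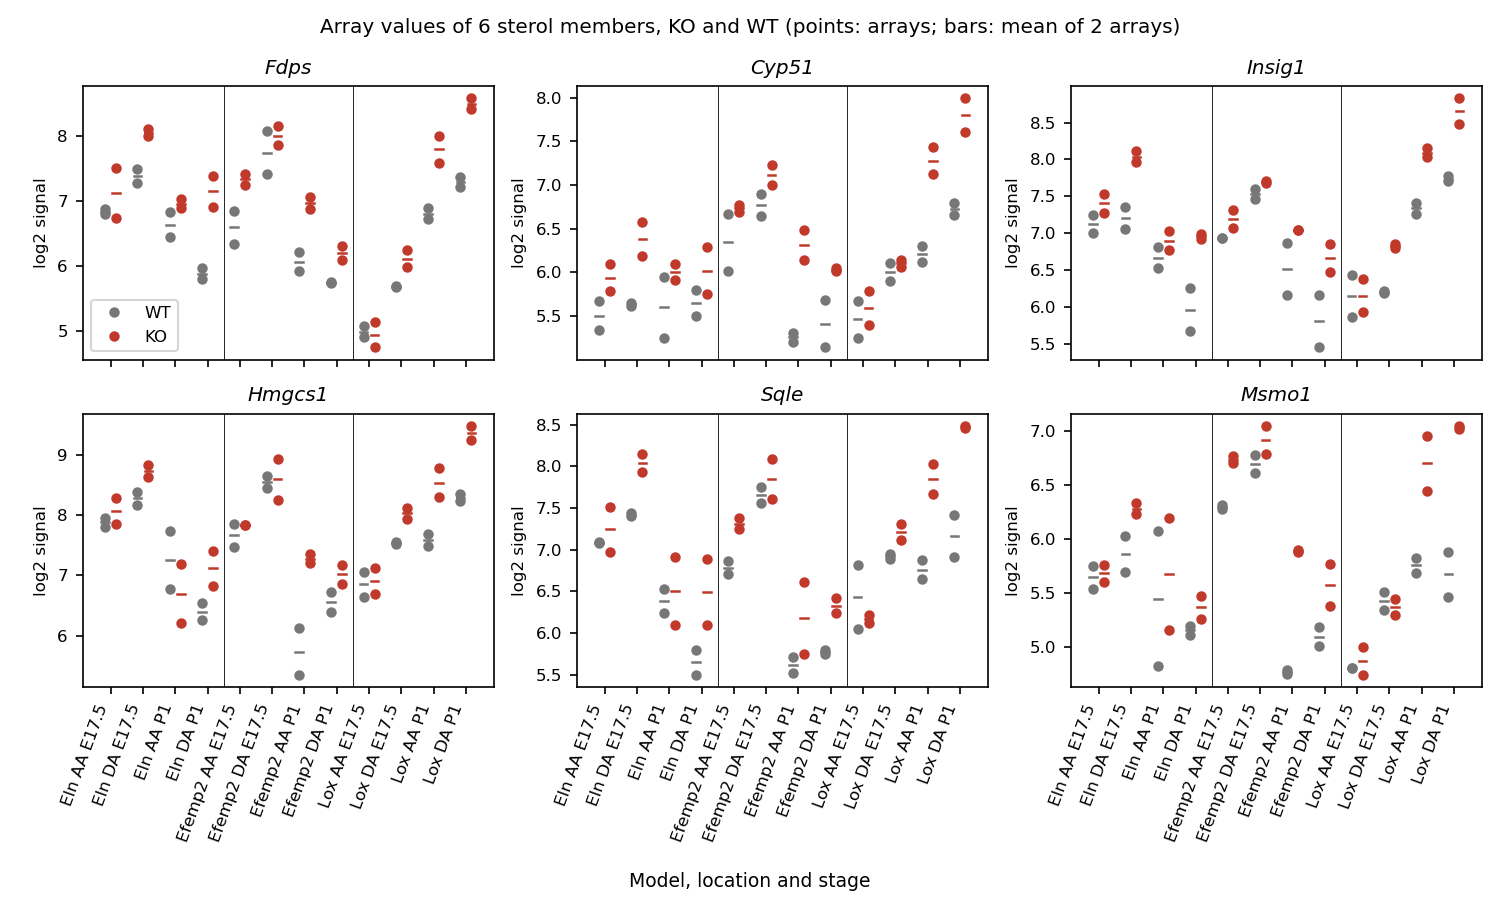
Log2 signal on every array (y axis) of 6 sterol genes in the 12 pairs (x axis), WT in grey and KO in red, with bars at the mean of 2 arrays. In Lox at P1 the KO arrays lie above the WT arrays of the same location for all 6 genes, while in Lox AA at E17.5 the KO and WT points of all 6 overlap. All 6 are genes that rose in Lox KO, so the separation is partly built in. The share of all tested genes that separate this way was not counted.

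Among the regulators, Insig1, which retains SCAP and the SREBPs in the endoplasmic reticulum (probe set 17435584), was higher in 12 of 12 pairs, though by 0.00 in Lox AA at E17.5. In Eln at E17.5 it read 7.01 and 7.25 in WT and 7.28 and 7.53 in KO in AA, and 7.36 and 7.06 in WT and 8.11 and 7.97 in KO in DA. Its P1 arrays read 6.52 and 6.81 in WT and 6.77 and 7.03 in KO in AA, and 5.68 and 6.26 in WT and 6.93 and 6.99 in KO in DA. The Eln pairs were free of overlap except AA at P1. In Efemp2 at E17.5 Insig1 read 6.94 and 6.94 in WT and 7.07 and 7.31 in KO in AA, and 7.47 and 7.60 in WT and 7.69 and 7.71 in KO in DA. The P1 arrays read 6.87 and 6.17 in WT and 7.04 and 7.05 in KO in AA, and 6.17 and 5.46 in WT and 6.85 and 6.47 in KO in DA. None of these overlapped. In Lox at E17.5 it read 5.87 and 6.43 in WT and 6.38 and 5.93 in KO in AA, and 6.22 and 6.20 in WT and 6.86 and 6.80 in KO in DA, with overlap in AA only. The Lox arrays at P1 read 7.41 and 7.27 in WT and 8.04 and 8.15 in KO in AA, and 7.77 and 7.71 in WT and 8.83 and 8.48 in KO in DA, with none. Insig1 rose by 0.58 ± 0.12 in Eln KO (limma adjusted p = 0.00272), by 0.45 ± 0.12 with Efemp2 deleted (0.0270) and by 0.57 ± 0.12 with Lox deleted (0.00701). The Lox call held on leaving out any 1 array and under every other setting tried over its 4 pairs. The Eln call ended without the DA P1 pair (0.139) and under the background covariate (0.174). The Efemp2 call ended without WT DA E17.5 replicate 1, WT AA P1 replicate 2, WT DA P1 replicate 2, KO AA E17.5 replicate 2, KO DA E17.5 replicate 1, KO DA E17.5 replicate 2, KO AA P1 replicate 2 or KO DA P1 replicate 1 (adjusted p from 0.0502 to 0.110), without the 4 high-background arrays (0.161), with only the arrays compared (0.184) and with the covariate, at 0.23 (0.357).

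Insig2, the other INSIG, had no call in any model. It differed by 0.05 ± 0.13, -0.30 ± 0.13 and -0.25 ± 0.13 in Eln, Efemp2 and Lox KO (limma adjusted p = 0.894, 0.203 and 0.357), and lay below the median of all tested genes in 9 of 12 pairs. In Efemp2 at E17.5 it read 6.91 and 6.43 in WT and 5.95 and 6.16 in KO in AA, and 6.36 and 6.17 in WT and 5.55 and 6.10 in KO in DA, with every KO array below its WT arrays in both locations. Srebf2 rose in Eln KO by 0.42 ± 0.12 (0.0372), a call that ended on leaving out any 1 of 11 arrays (adjusted p from 0.0616 to 0.135). It also ended in 6 of 11 other settings, with loess (0.220), with the covariate (0.270), after centring each array (0.0878), with only the arrays compared (0.0852), without the 4 high-background arrays (0.199) and without the DA P1 pair (0.453). Srebf2 differed by 0.37 ± 0.12 in Efemp2 KO (0.0678) and 0.39 ± 0.12 in Lox KO (0.0848). The Lox difference did pass after centring each array, with only the arrays compared and without the 4 high-background arrays. Srebf1 differed by 0.12, 0.23 and 0.02, and none passed. Stard4, a carrier of cholesterol between membranes and itself a SREBP-2 target, differed by -0.13, 0.00 and 0.17, and none passed.

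In the fatty acid branch 1 of 9 members rose in Eln KO and none in Efemp2 or Lox KO, against 6, 5 and 8 of 22 in the sterol branch. Of all tested genes 2.74%, 3.14% and 0.561% rose. With 9 members, these counts cannot set the fatty acid branch apart from all genes. The member that rose in Eln KO was Me1, malic enzyme, which supplies NADPH for lipid synthesis. In Eln at E17.5 it read 7.56 and 7.70 in WT and 7.96 and 8.06 in KO in AA, and 7.76 and 7.76 in WT and 8.26 and 8.23 in KO in DA. The P1 arrays read 6.48 and 6.92 in WT and 6.95 and 7.14 in KO in AA, and 6.30 and 6.31 in WT and 6.71 and 7.64 in KO in DA. Both KO arrays lay above both WT arrays in all 4 pairs, and Me1 rose by 0.52 ± 0.12 (limma adjusted p = 0.00756). The call held on leaving out any 1 array and ended without the 4 high-background arrays (0.129), without the DA P1 pair (0.222), with the covariate (0.248) and with only the arrays compared in the fit (0.0519). In Efemp2 and Lox KO Me1 differed by 0.15 ± 0.12 (0.573) and 0.25 ± 0.12 (0.313).

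Acly, which frees acetyl-CoA from citrate, Acss2, which makes it from acetate, Acaca, which makes malonyl-CoA, and Fasn, the fatty acid synthase, passed in no model mean. Fasn differed by 0.31 ± 0.13, 0.10 ± 0.13 and 0.42 ± 0.13 in Eln, Efemp2 and Lox KO (limma adjusted p = 0.237, 0.764 and 0.115). Its Lox difference did pass after centring each array and with only the arrays compared in the fit. Elovl6, which lengthens palmitate, and the desaturases Fads1 and Fads2 of polyunsaturated fatty acids also passed in none, with differences of -0.01 to 0.37. Scd1, the stearoyl-CoA desaturase, had the widest range of any member over the pairs, from -1.28 in Eln AA at P1 to 0.87 in Eln DA at E17.5. In Eln at P1 it read 7.37 and 8.98 in WT and 6.50 and 7.28 in KO in AA, and 8.47 and 6.56 in WT and 7.11 and 7.79 in KO in DA, with wide gaps between replicates of WT.

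Setting the branches side by side, the median member difference less the median of all tested genes was 0.17 in the sterol and 0.21 in the fatty acid branch in Eln KO. It was 0.21 and 0.08 in Efemp2 KO, and 0.32 and 0.22 in Lox KO. No test was made of these medians. The sterol branch was the higher in 8 of 12 pairs, and each branch lay above the median of all tested genes in 11 of 12. The exceptions were Lox AA at E17.5 for the sterol branch, at -0.00, and Efemp2 DA at E17.5 for the fatty acid branch, at -0.13. The widest gaps ran opposite ways. In Lox AA at P1 the sterol branch stood at 0.48 and the fatty acid branch at 0.18, and in Eln DA at P1 they stood at 0.21 and 0.52. Gaps between the branches ran from -0.30 to 0.30. Replicate arrays differed by an SD of 0.109 in the sterol and 0.131 in the fatty acid branch score. That SD is for a branch on single arrays. A gap joins both branches and both genotypes, so the SD understates its spread, which was not estimated.

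**Figure D3:**
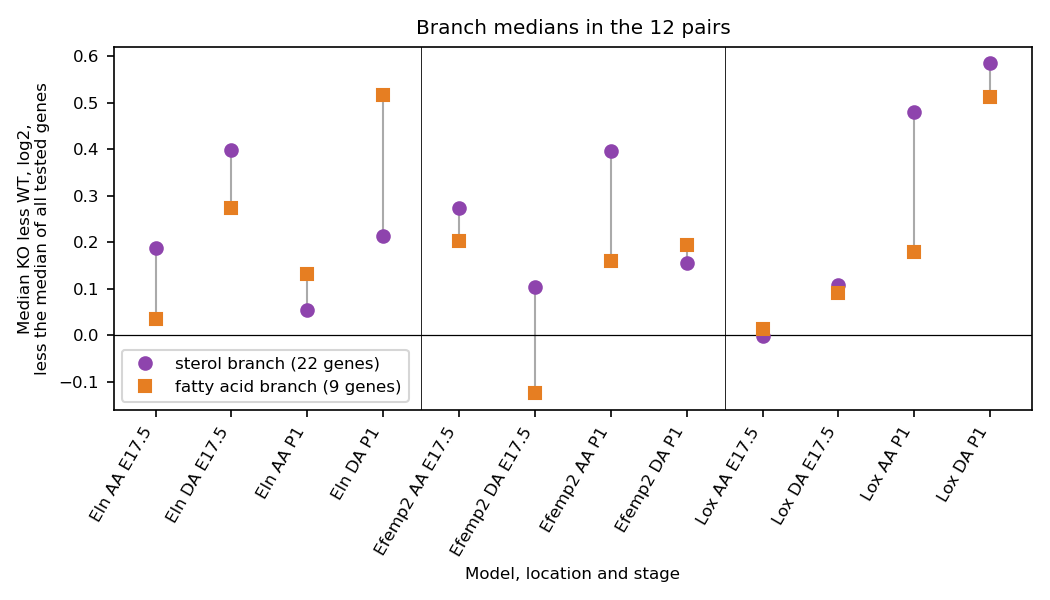
Median KO less WT of the 22 sterol (circles) and 9 fatty acid genes (squares) in each of the 12 pairs, less the median of all tested genes of the pair (y axis, log2). Circles lie above squares in 8 pairs, squares furthest above circles in Eln DA at P1 (0.52 against 0.21), and both are near 0 in Lox AA at E17.5.

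Over the 12 pairs, Fdps went most closely with Sqle (Pearson r = 0.939, n = 12 pairs), then Fasn (0.829), Insig1 (0.791), Msmo1 (0.745), Hmgcs1 (0.739) and Cyp51 (0.709). The median r was 0.325 over the 231 gene pairs within the sterol branch, 0.173 over the 36 within the fatty acid branch and 0.244 over the 198 between them. These are descriptions, since the genes share arrays and pairs of a model share a background strain. Cyp51 and Insig1 lay above the median of all tested genes in 12 of 12 pairs, as did 0.822% of all tested genes. In 11 of 12 pairs 11 further members did, and the share of all tested genes that did so was not counted.

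Single pairs gave calls only at P1. In Eln DA at P1, 14 members rose, against 19.8% of all tested genes (5.74% fell), with a median of all genes of 0.27, and both WT arrays were of high background. Fdps (1.27), Fads1 (1.07), Mvd (1.02), Insig1 (0.99), Fasn (0.92), Ebp (0.89), Acaca (0.88), Me1 (0.87), Sqle (0.85), Fads2 (0.78), Fdft1 (0.77), Srebf2 (0.74), Acly (0.67) and Srebf1 (0.61) passed there. With array background as a covariate none of the 14 kept its call, and Fdft1 turned to -0.21. In Efemp2 AA at P1, 6 members rose, against 3.03% of all genes (0.678% fell), led by Hmgcs1 (1.54 ± 0.30, limma adjusted p = 0.00391), Msmo1 (1.12) and Cyp51 (1.06), with Fdps (0.91), Srebf2 (0.90) and Pmvk (0.73). WT replicate 2 of that pair was of high background, and without the 4 such arrays Srebf2 stood at 0.50 (adjusted p = 0.192) and Fdps at 0.76 (0.105). The Pmvk call ended in 5 of 10 other settings, those of Fdps and Srebf2 in 4 each, and those of Cyp51 and Msmo1 in 1 each. In Efemp2 DA at P1 only Fads2 did (0.82, against 1.28% of genes, and 0.274% fell). WT replicate 2 of that pair was of high background, and the call ended without the 4 such arrays (adjusted p = 0.126), with loess (0.236), after centring each array (0.0621), with only the arrays compared (0.274) and with the covariate (0.0773). In Lox AA at P1 Cyp51 (1.07) and Fdps (0.99) rose, against 0.170% of genes (0.437% fell), and both calls ended with no filter and with the covariate (adjusted p from 0.0568 to 0.0645). In Lox DA at P1 Msmo1 (1.36 ± 0.27, adjusted p = 0.0142), Sqle (1.31) and Fdps (1.20) rose, against 0.104% (0.156% fell). In Eln AA at P1 none passed, against 1.15% of genes higher and 0.665% lower, with 1 member higher and 1 lower at an unadjusted p under 0.05.

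In the 6 pairs at E17.5 no member passed in either direction, where few genes did. Of all tested genes 0.0391% were higher and 0.0848% lower in Eln AA, 0.0326% and 0.0130% in Eln DA, 0.548% and 0.0652% in Efemp2 AA, 0.0391% and 0% in Efemp2 DA, 0.0130% and 0.0130% in Lox AA, and 0.00652% and 0.00652% in Lox DA. At an unadjusted p under 0.05, members higher numbered 0 in Eln AA, 7 in Eln DA, 1 in Efemp2 AA, 0 in Efemp2 DA, 1 in Lox AA and 2 in Lox DA, and members lower 0, 0, 1, 3, 1 and 0. No member was lower at the adjusted threshold in any of the 12 pairs. A pair rests on 2 arrays against 2, and each pair call except those of Fdps, Acaca and Fads1 in Eln DA ended on leaving out at least 1 array. The Fdps, Sqle and Msmo1 calls in Lox DA at P1 each ended without any 1 of its 4 arrays (adjusted p from 0.0628 to 0.989).

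**Figure D4:**
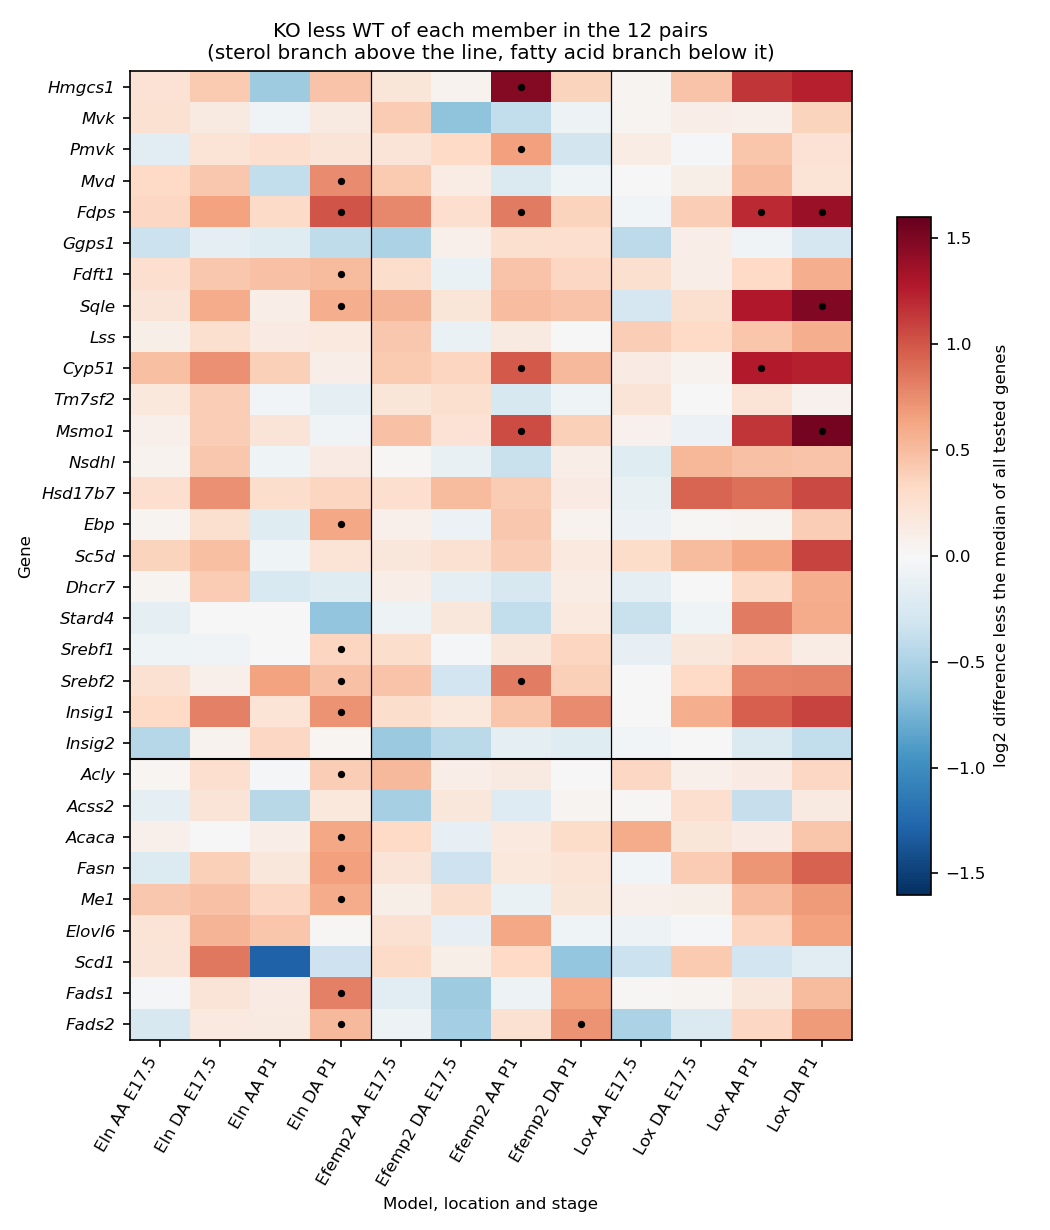
KO less WT (colour, log2, less the median of all tested genes) of the 31 genes (rows) in the 12 pairs (columns), with dots where the limma adjusted p is under 0.05. The dots lie in P1 columns only, 14 of them in Eln DA, and the deepest red is Msmo1 in Lox DA at P1.

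The means over each stage, added after the pair values had been seen, gave 0 members at E17.5 in each model, against 0.124% of genes in Eln, 0.574% in Efemp2 and 0.0848% in Lox KO (6, 2 and 3 members higher and 0, 3 and 1 lower at an unadjusted p under 0.05). At P1 they gave 8 in Eln, 7 in Efemp2 and 9 in Lox KO, against 8.75%, 7.07% and 0.548% of genes. The 8 in Eln KO were Fdps, Fdft1, Srebf2, Insig1, Acaca, Me1, Fads1 and Fads2, and the 7 in Efemp2 KO Hmgcs1, Fdps, Cyp51, Msmo1, Srebf2, Insig1 and Fads2. Both WT arrays of the Eln DA pair and WT replicate 2 of each Efemp2 pair at P1 were of high background. The part of that background in these P1 calls was not tested. The 9 in Lox KO were Hmgcs1 (1.01), Fdps (1.10), Sqle (1.19), Cyp51 (1.07), Msmo1 (1.15), Hsd17b7 (0.78), Srebf2 (0.60), Insig1 (0.83) and Stard4 (0.52), all of the sterol branch, where the median of all genes was -0.19. At E17.5 the same contrast gave Sqle 0.01, Msmo1 0.01, Cyp51 0.11 and Fdps 0.19 in Lox KO, while Eln KO gave Cyp51 0.59 and Insig1 0.55 and Efemp2 KO gave Fdps 0.50.

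The difference between the stages was tested itself. P1 less E17.5 in Lox KO was 1.18 ± 0.28 for Sqle (limma adjusted p = 0.0840), 1.15 ± 0.27 for Msmo1 (0.0845), 0.96 ± 0.25 for Cyp51 (0.125) and 0.91 ± 0.24 for Fdps (0.132). None passed (0.00652% of genes were higher and 0.0913% lower), with 8 members higher at an unadjusted p under 0.05, so a larger Lox effect at P1 was not shown. In Efemp2 KO Fads2 passed, at 0.89 ± 0.20 (0.0315, against 1.15% of genes, and 0.183% lower), and in Eln KO no member did (0.443% higher and 0.124% lower of all genes), with 5 higher and 1 lower at an unadjusted p under 0.05. The array medians of Lox at P1 ran from 5.21 to 5.35 for WT against 4.85 to 5.19 for KO. The part of these medians in the Lox values was not tested.

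Between locations, the KO effect in DA less that in AA passed for Mvd in Eln KO (0.79 ± 0.23, limma adjusted p = 0.0433, against 3.13% of genes, and 2.11% lower) and for no member in Efemp2 or Lox KO, where no gene at all passed. The differences of the mean KO effect between models passed for no member, in any of the 3 comparisons. Of all genes, 0.196% were higher and 0.359% lower in Eln than Efemp2 KO, 0.482% and 0.0261% in Eln than Lox KO, and 0.0261% and 0% in Efemp2 than Lox KO. At an unadjusted p under 0.05, 2 members were higher in Eln than Efemp2 KO and 1 was lower in Eln than Lox KO. A call in 1 model and not in another, such as that of Me1, therefore does not show that the models differ. For Me1, Eln less Efemp2 KO was 0.37 ± 0.17 (0.548), and for Hmgcs1, Eln less Lox KO was -0.44 ± 0.21 (0.374).

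In the WT aorta, 3 members were higher in DA than AA, against 4.64% of all genes, and none was lower, against 3.96% (8 and 3 at an unadjusted p under 0.05). They were Hmgcs1 (0.44 ± 0.12, limma adjusted p = 0.0215), Scd1 (0.62 ± 0.19, 0.0327) and Fdps (0.30 ± 0.10, 0.0485). In the same contrast the fat markers Cd36 and Fabp4 were higher by 0.99 and 0.45, and the 8 tested fat markers had a median of 0.44. Their part in the Scd1 difference was not tested. The count was 1 without Eln WT AA E17.5 replicate 1, either Eln WT DA E17.5 array, Lox WT DA E17.5 replicate 2, Lox WT AA P1 replicate 1 or Lox WT DA P1 replicate 1, 0 without Eln WT AA P1 replicate 1 and 6 without Eln WT AA P1 replicate 2 or without the 4 high-background arrays. The Fdps call ended on leaving out any 1 of 35 arrays (adjusted p from 0.0501 to 0.117), and the Scd1 call ended on leaving out any 1 of 11 arrays (adjusted p from 0.0505 to 0.0910). The Hmgcs1 call ended without Eln WT AA P1 replicate 1 or Efemp2 WT AA P1 replicate 1 (adjusted p 0.0606 to 0.0625).

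Further genes of the pathway were read from 3 lists. Of 17 listed genes of sterol synthesis, SREBP processing, uptake and transport, 12 were tested and none rose. Scap, the SREBP escort, differed by 0.24, -0.05 and -0.09 in Eln, Efemp2 and Lox KO. Vldlr, a receptor for triglyceride-rich lipoproteins, fell by 0.65 ± 0.14 in Eln KO (limma adjusted p = 0.00358) and by 0.65 ± 0.14 in Lox KO (0.00701), lower in 4 of 4 pairs of each, and differed by -0.23 ± 0.14 in Efemp2 KO (0.416). The list medians less the median of all tested genes were 0.10, 0.21 and 0.05. Of 13 tested genes of further fatty acid and triglyceride metabolism, of 16 listed, none passed in a model mean, with medians of -0.06, -0.01 and -0.01.

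Of 9 listed genes of cholesterol efflux and the liver X receptors, 8 were tested. In Efemp2 KO 3 of them rose (against 3.14% of all tested genes), and none in Eln or Lox KO (against 2.74% and 0.561%). They were Mylip, the ligase that degrades the LDL receptor (0.49 ± 0.13, limma adjusted p = 0.0238), Apoe, the carrier of secreted lipid (0.32 ± 0.09, 0.0337), and Ch25h, cholesterol 25-hydroxylase (0.57 ± 0.16, 0.0397), each higher in 4 of 4 pairs. In the same contrast 6 of 9 macrophage markers rose, with a list median of 0.61, among them Itgam (1.33), Lyz2 (1.22) and Cd68 (1.08). The mean level of the 9 was 7.27 to 7.78 on the Efemp2 KO arrays and 6.09 to 7.16 on their WT arrays. Their part in the rise of the efflux genes or of the sterol genes was not tested. Macrophage medians were -0.05 in Eln KO, where none of 9 rose, and 0.50 in Lox KO, where Adgre1 alone did.

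Fat markers lay lower in the KO aortas, with 8 of 12 listed genes tested. Fabp4 (-0.49), Pparg (-0.78) and Cd36 (-1.04) fell in Eln KO, Cidea (-0.89) fell in Lox KO and none passed in Efemp2 KO. Among all tested genes, 0.541%, 0.665% and 1.00% fell in Eln, Efemp2 and Lox KO. The list medians were -0.55, -0.51 and -0.53 in Eln, Efemp2 and Lox KO, opposite in sign to the sterol branch. The mean level of the 10 fat markers with a probe set ran from 4.89 to 8.08 on Eln WT and 4.80 to 6.89 on Eln KO arrays, from 5.03 to 7.45 and 5.07 to 5.92 in Efemp2, and from 4.47 to 8.05 and 4.28 to 7.16 in Lox. Over the 12 pairs Scd1 followed the fat median with r = 0.754 and Fads2 ran against it with r = -0.626 (n = 12 pairs). In Eln AA at P1, where Scd1 differed by -1.28, the fat median was -1.86. Their part in the Scd1 values was not tested.

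Markers of other cells were read the same way. Of 7 tested proliferation genes, Mcm2 alone rose, in Lox KO (0.46, limma adjusted p = 0.00393), with list medians of -0.00, 0.09 and 0.16. Of 8 smooth muscle genes, Smtn alone rose, in Eln KO (0.60, 0.00821), with medians of 0.20, 0.14 and 0.18. Of 7 endothelial genes 1, 3 and 0 fell in Eln, Efemp2 and Lox KO, with medians of -0.13, -0.53 and -0.22. The shares of all tested genes that fell were 0.541%, 0.665% and 1.00%. Of 6 fibroblast genes 3, 1 and 0 fell, with medians of -0.34, -0.10 and -0.07, and no Schwann cell or erythroid gene of the 4 and 2 tested passed.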

How the data were processed

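Each array held amplified RNA (5 ng, NuGEN Ovation Pico) of 8 pooled aortas. Per the submitters' processing notes, the authors made the deposited log2 values per probe set with RMA in Affymetrix Expression Console, and versions, array name and genome build are not given in the sources used here. The number of arrays limits the precision.

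Of 41345 probe sets, 23521 carried 1 symbol. The probe set with the highest mean stood for a gene, and genes with a group mean of at least 4.94, the median of all values of such probe sets, were tested. A mean for each of 24 groups was fitted with limma 3.58.1 (R 4.3.3) on 48 arrays, with 24 residual degrees of freedom, eBayes and Benjamini-Hochberg adjustment over 15337 genes. The fit was tested on simulated data. The members and lists were chosen with earlier results of these data known. Named are all members, the deleted genes and, of other lists, genes that passed, up to 4 per list and model. Scap was named after its values were seen.

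Alternatives were other scalings, filters, probe set rules and variances, the replicate number as a block (statmod 1.5.0), array background (the median over 1396 receptor genes of smell and the vomeronasal organ) as a covariate and arrays left out. The deviations of KO and WT arrays of 1 number correlated over 0.1 in 3 of 12 pairs (median 0.0489, range -0.233 to 0.203). With 2 arrays per group this does not settle whether replicate numbers pair samples, and AA was not set against DA.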

Additional observations from a re-analysis of the deposited data

Results flagged for a closer look

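The effect of the Eln knockout on Mvd differed between the locations by a test of the difference, DA less AA at 0.79 on the log2 scale (limma adjusted p = 0.0433). The pairs gave 0.28 and -0.38 in AA and 0.46 and 1.02 in DA, at E17.5 and P1. The largest rests on the WT DA P1 arrays, at 4.22 and 5.01, both of high background. The value of 4.22 lay below the median of probe sets with no gene name on its array, 4.35. The call ended in 6 of 10 other settings and on leaving out any 1 of 18 arrays.

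The effect of the Efemp2 knockout on Fads2 differed between the stages, P1 less E17.5 at 0.89 (limma adjusted p = 0.0315). The pairs gave -0.11 and -0.54 at E17.5 in AA and DA, then 0.32 and 0.82 at P1, and the call ended in 3 of 10 other settings and on leaving out any 1 of 7 arrays.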

How the results depend on the processing

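With 1 array left out at a time, members higher ranged from 3 to 9 in Eln, 3 to 6 in Efemp2 and 4 to 9 in Lox KO, and members lower from 0 to 1, 0 to 0 and 0 to 0. In WT, members higher in DA ranged from 0 to 6 and lower from 0 to 2. Sterol medians ranged from 0.13 to 0.26, 0.14 to 0.24 and 0.26 to 0.38, and fatty acid medians from 0.18 to 0.25, 0.02 to 0.14 and 0.16 to 0.25. Members higher in Eln KO (7) were 4 with cyclic loess, 4 with each array centred on its median, 2 with only the arrays compared, 1 with array background as a covariate, 2 without the 4 high-background arrays, 0 at E17.5 alone and 0 without the DA P1 pair. In Efemp2 KO (5) they were 3 with only the arrays compared, 1 with the covariate and 0 at E17.5. In Lox KO (8) they were 10 with each array centred on its median, 10 with only the arrays compared, 4 with the covariate and 0 at E17.5. In WT, members higher in DA (3) were 5 with cyclic loess, 1 with only the arrays compared and 6 without the 4 arrays, and 1 was lower after centring. The fatty acid median in Eln KO was 0.35 at P1 alone, and the sterol median in Lox KO 0.089 at E17.5 and 0.49 at P1. Fdft1 in Eln DA at P1 turned to -0.21 with the covariate (limma adjusted p = 0.813). The cause of these changes was not tested. The replicate block as a fixed term gave 6, 6 and 8 members higher, against 7, 5 and 8, and 3 in WT as without it. Whether the replicate numbers pair samples was not settled. The stage means and the fit without the DA P1 pair were chosen after seeing the data.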
